A study of Mus musculus with 21 samples.

Results

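Mouse embryonic fibroblasts (MEFs) were set against mouse embryonic stem cells (ESCs) in 6 of the series' 21 RNA sequencing libraries, 3 for each cell type, across all 21161 gene names of the table that holds both. The libraries were chosen by their labels alone. Both cell types carry the line name OG2 and the label WT in place of a treatment, and the labels give neither the age of the embryos, nor the number of passages, nor the culture medium, nor whether feeder cells were present. The same table holds 3 libraries each of epiblast stem cells (EpiSCs, stem cells of a later, primed form of pluripotency) and of cells in a state resembling the embryo after its first cleavage (named 2CLCs in the labels), with the same line name and label. They lend their spread to the test and show where MEFs stand apart from more than ESCs. Total RNA was sequenced from bulk cultures, so that fewer cells of a type and less RNA per cell cannot be told apart.

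Fibroblasts are the connective tissue cells of the embryo's mesenchyme. They lie singly, pull on their surroundings through actin stress fibres, and secrete the collagens, fibronectin and proteoglycans of the extracellular matrix, together with the enzymes that crosslink and cut it. Embryonic stem cells grow as tight epithelial colonies held by E-cadherin, divide with a short G1 phase, and keep their state through the transcription factors Oct4 (Pou5f1), Sox2 and Nanog. Turning fibroblasts into stem cells with such factors is the classical reprogramming experiment, in which the loss of mesenchymal genes and the gain of epithelial genes come early.

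Values are FPKM, fragments scaled to transcript length and to the number of mapped fragments, as deposited. Levels are given per library or as the mean ± SD of 3 libraries. A difference is MEF minus ESC in log2(FPKM + 1) units, in which low genes appear to change less than they do. A gene is called higher or lower where limma's adjusted p (Benjamini-Hochberg, over 16358 genes tested) is under 0.05. Library sums lay between 375926 and 376488 FPKM in MEFs and between 415173 and 416600 in ESCs, and 12845 to 12871 genes reached 1 FPKM in a MEF library against 12266 to 12360 in an ESC library. Libraries of the same cell type correlated at r of 0.9949 to 0.9955 in MEFs and 0.9956 to 0.9958 in ESCs across genes, which are not independent replicates. Of genes with at least 5 FPKM, the median coefficient of variation was 3.9% in MEFs and 3.79% in ESCs, but 13.4% in EpiSCs, whose wider spread enters the shared test.

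The cell types differed in most of what they express. Of 16358 genes tested, 12319 were called, which is 75.3%: 5633 were higher in MEFs (34.4%) and 6686 lower (40.9%). By at least 1 on the log2 scale, 3466 genes were higher (21.2%) and 3352 lower (20.5%). A difference of 5 or more was found for 135 genes upward and 66 downward. The 3 MEF libraries lay wholly above the 3 ESC libraries in 37.8% of the genes tested and wholly below them in 45.7%. At a mean of 1 FPKM or more, 10748 genes were present in both cell types, 2073 in MEFs but not ESCs, and 1562 in ESCs but not MEFs. Since a call is this common, it says little of a gene by itself, and each list below is read against these shares and against the median difference over all genes tested, -0.07. Genes were tested only where 3 or more of the table's 12 libraries reached 1 FPKM. A gene read in MEFs or in ESCs alone is thus tested only because that cell type reads it, which sets its direction. For every gene named below as higher, lower, risen or fallen, the 3 MEF libraries and the 3 ESC libraries did not overlap.

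**Figure D1:**
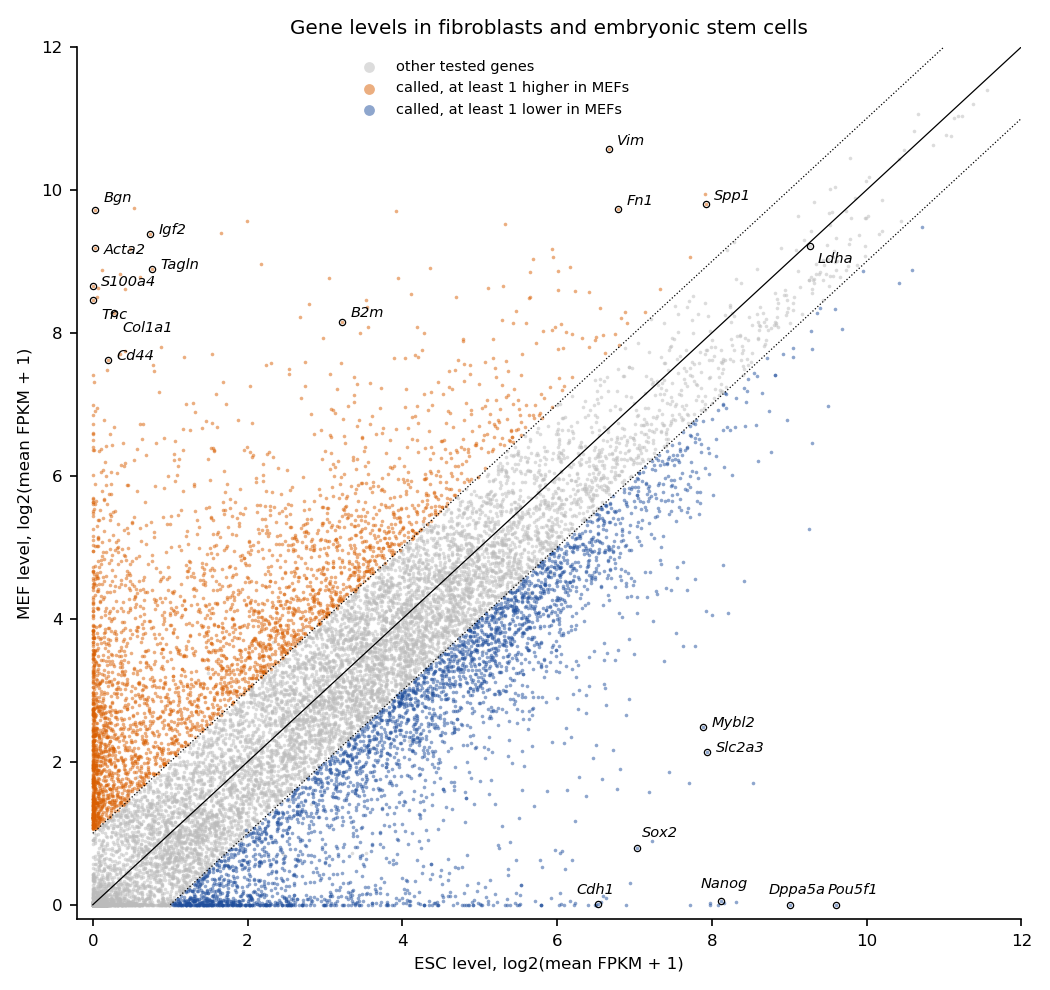
Each point is a tested gene, with its ESC level on the horizontal and its MEF level on the vertical axis, both as log2(mean FPKM + 1) over 3 libraries; the solid line marks equal levels and the dotted lines a difference of 1. Genes of the matrix and of stress fibres line the left edge at levels of 8 and above, and pluripotency genes line the bottom edge, with Pou5f1 at 0 in MEFs.

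The largest rises in MEFs were genes of the matrix, of contraction and of fetal growth. Biglycan (Bgn, chrX:73483602-73495933), a small proteoglycan that binds collagen, read 855, 818 and 849 FPKM in the 3 MEF libraries and 0, 0.0289 and 0.0437 in the 3 ESC libraries, a difference of 9.68 (SE 0.08, adjusted p = 1.77e-14, limma). The groups lay far apart, with no ESC library above 0.05 FPKM. Acta2, the actin of smooth muscle and of contractile fibroblasts, read 568, 584 and 592 FPKM in MEFs and 0, 0.0592 and 0 in ESCs (difference 9.16, limma adjusted p = 1.24e-13). H19 and Igf2, imprinted neighbours on chromosome 7 that are read from opposite parental copies, stood side by side. The noncoding H19 read 871, 852 and 860.2 FPKM in MEFs against 0.404, 0.454 and 0.499 in ESCs, and the growth factor gene Igf2 read 676, 654 and 674 against 0.627, 0.695 and 0.708. S100a4, a calcium-binding protein long used as a fibroblast marker, read 395, 402 and 411 in MEFs and was listed at 0 in all 3 ESC libraries. The matrix glycoprotein tenascin C (Tnc) read 352, 348 and 354 in MEFs and was likewise listed at 0 in each ESC library. Thbs1, Fbln2, Col1a2, Anxa1, Mgp, Gsn, Timp2, Tagln and Col1a1 complete the 15 largest rises, with differences between 8.01 for Col1a1 and 8.76 for Thbs1. In all 15 the MEF libraries lay above every ESC, EpiSC and 2CLC library.

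The largest falls were genes of the pluripotent state. Pou5f1 (chr17:35506018-35510772), the gene of Oct4, read 778, 776 and 782 FPKM in the ESC libraries and was listed at 0 in all 3 MEF libraries (difference -9.61, SE 0.08, limma adjusted p = 1.77e-14). Dppa5a, whose product binds RNA in pluripotent cells, read 512, 515 and 512 in ESCs and 0 in every MEF library. The zinc finger gene Zfp42 (Rex1) read 319, 318 and 316 in ESCs against 0.0315, 0.0431 and 0 in MEFs, and the orphan nuclear receptor gene Esrrb 291, 279 and 285 against 0.0175, 0.0286 and 0. Tdh, threonine dehydrogenase, through which mouse stem cells turn threonine into glycine, read 270.4, 269 and 270.2 in ESCs and 0 in all MEF libraries. Nanog read 276, 276 and 279 against 0.0604, 0 and 0.0612. Tdgf1, L1td1, Utf1, Lin28a, Bex1, Dnmt3l, Alpl, the noncoding Platr10 and Cdh1 complete the 15 largest falls, with differences from -7.97 for Tdgf1 to -6.52 for Cdh1. A difference against a group listed at 0 depends on the pseudocount of 1 FPKM and is not a fold.

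The other pluripotent cells of the table split these falls. Pou5f1 read 576, 720 and 736 FPKM in EpiSCs, and Utf1 313, 316 and 312, so that both genes set MEFs apart from EpiSCs as well as ESCs. Dppa5a at 0.259 ± 0.225, Zfp42 at 0.0307 ± 0.0532 and Esrrb at 0.699 ± 0.279 FPKM were all under 1 FPKM in EpiSCs too, so that their low level in MEFs is shared with a pluripotent state. Across all genes, 2163 lay above ESCs, EpiSCs and 2CLCs alike by at least 1, each contrast with an adjusted p under 0.05 (13.2% of the genes tested, and 62.4% of those at least 1 higher than in ESCs). Below all 3 states by as much lay 755 genes (4.62% of the genes tested, and 22.5% of those at least 1 lower than in ESCs). The 3 contrasts share the MEF libraries.

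**Figure D2:**
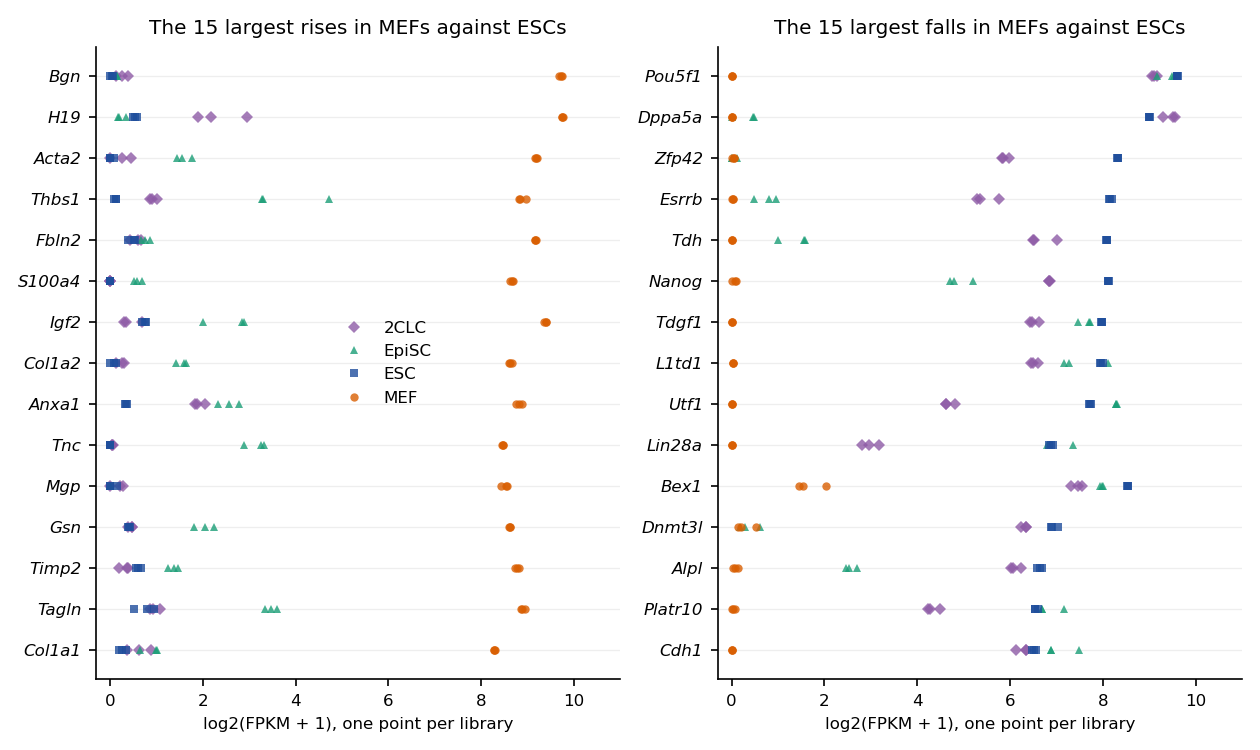
Each row is a gene and each point a library, placed by log2(FPKM + 1); the left panel holds the 15 largest rises and the right panel the 15 largest falls of MEFs (circles) against ESCs (squares), with EpiSCs (triangles) and 2CLCs (diamonds) beside them. Bgn in MEFs lies near 10 against values near 0 in every stem cell library, while Dppa5a, Zfp42, Esrrb and Dnmt3l lie near 0 in EpiSCs as well as in MEFs.

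Genes of the matrix were among the most one-sided of the lists. All 22 genes of fibrillar and network collagen chains are in the table and 21 were tested: 20 were higher in MEFs and 1 lower, with a median difference of 5.09. Col14a1, the member not tested, stood at 1.05 ± 0.102 FPKM in MEFs. All 22 members reached a mean of 1 FPKM in MEFs and 4 did in ESCs, so the level filter bears on this direction. Col1a1, a chain of the main fibrillar collagen of skin and bone, read 308, 312 and 311 FPKM in MEFs and 0.196, 0.276 and 0.154 in ESCs. Its partner Col1a2 reached 394 ± 8.87 FPKM, and Col3a1, the collagen of pliable tissues, rose from 0.00725 ± 0.00647 FPKM in ESCs to 81 ± 6.21 in MEFs. The chains of collagen VI, which forms beaded filaments around cells, moved alike, with Col6a1 from 0.0217 ± 0.0377 to 119 ± 6.18 FPKM and Col6a3 from 0.00235 ± 0.00407 to 105 ± 9.72 FPKM. The basement membrane chain Col4a1 rose from 7.38 ± 0.272 FPKM in ESCs to 170.2 ± 4.59 in MEFs. The 1 lower gene was Col18a1, at 47.2 ± 1.08 FPKM in ESCs and 36.5 ± 2.15 in MEFs, a call that is lost with a pseudocount of 5, with other scalings and without any 1 of the 6 libraries (limma adjusted p from 0.0585 to 0.116 without a library). Summed over the list, MEF libraries held 1777 to 1818 FPKM of these chains and ESC libraries 58.8 to 61.2.

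Of 36 matrix glycoproteins and proteoglycans, all tested, 32 were higher in MEFs and 4 lower (median 3.41). Fibronectin (Fn1), through which cells grip the matrix by integrins, rose from 109.6 ± 4.52 FPKM in ESCs to 849.9 ± 13.7 in MEFs, and Sparc, a collagen-binding glycoprotein, from 60.6 ± 3.39 to 534 ± 4.92 FPKM. Fbn1, the backbone of microfibrils, rose from 1.12 ± 0.0662 to 63.7 ± 2.74 FPKM, and Postn, a matricellular protein of the periosteum and healing tissue, was listed at 0 in ESCs and stood at 43.6 ± 2.18 FPKM in MEFs. Dcn, a proteoglycan that decorates collagen fibrils, also went from 0 to 18.5 ± 2.6 FPKM. The 4 lower genes belong to basement membranes: Lama1, the laminin chain of the early embryo, fell from 13.2 ± 0.624 FPKM in ESCs to 0.518 ± 0.0366 in MEFs, Nid2 fell from 62.3 ± 2.54 to 10.1 ± 0.423 FPKM, Lamc1 from 82.1 ± 1.18 to 56.1 ± 0.425 FPKM and Lama5 from 18.1 ± 0.57 to 13 ± 0.427 FPKM. Lamb1 and, chosen after its value was seen, Nid1, of the same structures, rose (differences 3.86 and 3.50), so that the basement membrane genes did not move as a block. Spp1 (osteopontin), the highest of the list, read 239.7, 245 and 238 FPKM in ESCs and 952, 847 and 885 in MEFs.

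Enzymes that process and crosslink collagen were mostly higher. Of 20, 18 were higher and 1 lower (median 3.46). All 20 reached a mean of 1 FPKM in MEFs and 11 did in ESCs, so the level filter bears on this direction. Lox, lysyl oxidase, rose from 0.00376 ± 0.00651 FPKM in ESCs to 127 ± 6.05 in MEFs, Loxl2 from 0.285 ± 0.0529 to 70.1 ± 1 FPKM and Serpinh1, the collagen chaperone Hsp47, from 16.3 ± 1.05 to 373 ± 2.44 FPKM. Pcolce2, an enhancer of procollagen cleavage, fell from 11.5 ± 0.925 to 3.6 ± 0.223 FPKM. All 23 matrix proteases and inhibitors were higher, each by at least 1 and each also above EpiSCs and 2CLCs (median 4.25). Here too the filter bears on the direction, since 23 members reached a mean of 1 FPKM in MEFs and 9 in ESCs. Mmp3 (stromelysin) was listed at 0 in ESCs and read 89.9, 78 and 75.6 FPKM in MEFs. Mmp2, a gelatinase, rose from 1.95 ± 0.183 to 82.8 ± 5.47 FPKM and the membrane-bound Mmp14 from 15.4 ± 0.587 to 199 ± 2.59 FPKM. Their inhibitors rose as well, with Timp2 from 0.527 ± 0.0598 to 438 ± 12.3 FPKM and Timp1 from 28.4 ± 2.24 to 186 ± 8.23 FPKM.

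Contractile genes formed another one-sided list. Of 29 genes of stress fibres and the mesenchymal cytoskeleton, 28 were higher in MEFs and none lower; Cnn3 was not called, at 172 ± 3.91 FPKM in ESCs and 177 ± 0.235 in MEFs (median of the list 3.75; Cnn3 and, below, Cnn2 and Vcl were chosen after their values were seen). The intermediate filament gene Vim read 1489, 1568 and 1500 FPKM in MEFs, the highest level of the list, and 102, 98.6 and 102 in ESCs. Tagln, an actin-bundling protein of smooth muscle, read 463, 468 and 489 against 0.939, 0.731 and 0.425. Tropomyosin Tpm1 rose from 39 ± 2.04 to 733 ± 15.1 FPKM, the light chain Myl9 from 1.3 ± 0.42 to 128 ± 2.01 FPKM and lamin A (Lmna), the nuclear lamina protein that scales with tissue stiffness, from 10.7 ± 1.03 to 329.7 ± 14 FPKM. S100a6 rose from 2.15 ± 0.189 to 676 ± 2.15 FPKM. All 8 genes of caveolae, the membrane pits that buffer stretch, were higher (median 4.59), led by Cav1, which read 150.3, 163 and 159 against 0, 0.0262 and 0 FPKM. In MEFs 8 of them reached a mean of 1 FPKM and in ESCs 3, so the level filter bears on this direction.

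Targets of YAP and TEAD, the factors that carry mechanical signals to the nucleus, were mixed. Of 16, 12 were higher and 4 lower (median 2.92). Ankrd1 went from 0 in every ESC library to 40.1, 39.6 and 46.8 FPKM, Ccn2 (CTGF) rose from 6.89 ± 0.274 to 243 ± 21.4 FPKM, Ccn1 (CYR61) from 11 ± 1.84 to 156 ± 11.4 FPKM and the receptor tyrosine kinase gene Axl from 0.332 ± 0.0768 to 214 ± 6.98 FPKM. Ajuba fell from 62.8 ± 2.77 to 14.9 ± 0.988 FPKM, Dlc1 from 40 ± 0.19 to 9.51 ± 0.801 FPKM, Wwc1 from 9.71 ± 0.315 to 2.55 ± 0.0302 FPKM and Nt5e from 9.21 ± 0.37 to 4.12 ± 0.283 FPKM. The list therefore moved in both directions, with Ccn1, Ccn2 and Ankrd1, its usual reporters, on the higher side.

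Promoters are shown for the contractile list, whose called members were all higher, and for the YAP list, 12 of whose 16 members were higher and 4 lower. The windows hold the 250 bases before the start site, from RefSeq on GRCm38.p6, written 5′ to 3′ on the gene's strand, and were searched on both strands for 4 motifs that do not contain one another. These were the CArG box bound by serum response factor, the TEAD site GGAATG, the AP-1 site TGANTCA and the octamer ATGCAAAT bound by Oct4. Windows were at hand for 28 of the 29 contractile genes, 13 of the 16 YAP targets and 10942 of the 16358 genes tested. A gene counts as holding a motif where any of its windows does. A CArG box was held by 4 of the 28 contractile genes (14.3%) against 1.5% of the genes tested with a window. Counted per window, it stood in 1.47% of the 32851 windows of the table. The TEAD site was held by 7 of the 13 YAP target genes (53.8%) and by 10 of the 28 contractile genes (35.7%), against 12.9% of the genes tested with a window. The YAP list is built from genes known to bind TEAD, so its share is no separate evidence. Of genes at least 1 higher in MEFs, 8.64% held an AP-1 site in the window, against 3.74% of genes at least 1 lower and 5.63% of all genes tested. A match is a stretch of letters in this window, not a measured binding site. Below are 3 contractile promoters with the CArG box in capitals and the Ankrd1 promoter with its 2 TEAD sites in capitals.
Cnn2, chr10:79988350-79988599, plus strand: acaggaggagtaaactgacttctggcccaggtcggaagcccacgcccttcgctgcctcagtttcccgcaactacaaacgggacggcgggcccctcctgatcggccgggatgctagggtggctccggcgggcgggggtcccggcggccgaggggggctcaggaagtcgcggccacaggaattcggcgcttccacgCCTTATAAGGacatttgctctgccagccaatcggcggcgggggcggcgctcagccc
Myl9, chr2:156775214-156775463, plus strand: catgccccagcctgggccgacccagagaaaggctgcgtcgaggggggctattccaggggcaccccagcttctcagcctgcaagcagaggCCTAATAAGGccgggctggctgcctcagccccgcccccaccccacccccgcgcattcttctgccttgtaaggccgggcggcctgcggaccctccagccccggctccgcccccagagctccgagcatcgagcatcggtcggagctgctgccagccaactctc
Vcl, chr14:20929148-20929397, plus strand: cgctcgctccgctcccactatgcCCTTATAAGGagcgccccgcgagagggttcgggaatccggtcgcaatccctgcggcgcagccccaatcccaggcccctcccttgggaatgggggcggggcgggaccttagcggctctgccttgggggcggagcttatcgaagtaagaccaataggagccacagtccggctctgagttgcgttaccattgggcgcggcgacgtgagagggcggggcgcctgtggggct
Ankrd1, chr19:36119845-36120094, minus strand: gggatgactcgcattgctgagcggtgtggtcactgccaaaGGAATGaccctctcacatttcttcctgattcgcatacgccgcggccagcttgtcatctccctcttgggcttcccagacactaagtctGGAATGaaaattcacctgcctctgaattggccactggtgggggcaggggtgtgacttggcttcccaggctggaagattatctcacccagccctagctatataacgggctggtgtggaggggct

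Cnn2 (calponin 2) rose from 13.8 ± 1.12 to 199 ± 7.9 FPKM, and its CArG box begins 56 bases before the start site. Myl9 carries the box 161 bases before its start. Vcl (vinculin), which ties actin to focal adhesions, rose from 15.6 ± 0.945 to 147 ± 3.41 FPKM and holds it 227 bases before its start. The remaining contractile window with the box, that of Myl6, holds it 50 bases before the start, close to the distance in Cnn2. The boxes of Myl9 and Vcl lie further from the start. Of the 7 YAP targets with a TEAD site in the window, Ccn1, Ankrd1, Amotl2, Axl, Crim1 and Ptpn14 rose, and Ajuba, which holds 2, fell (Amotl2, Crim1 and Ptpn14 are named for their windows).

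Transcription factors of mesenchyme rose nearly throughout. Of 41 in the list, 39 are in the table and 36 were tested, of which 34 were higher and 1 lower (median 2.37). In MEFs 37 members reached a mean of 1 FPKM and in ESCs 11, so the level filter bears on this direction. Prrx1, a homeobox gene of limb and craniofacial mesenchyme, was listed at 0 in ESCs and read 82.5, 82 and 85.5 FPKM in MEFs. Twist2 likewise went from 0 to 47.5 ± 10.2 FPKM, and Twist1, Snai2 and Zeb2, which repress epithelial genes, rose by 3.37, 4.68 and 3.67. Fosl2, an AP-1 subunit, rose from 0.154 ± 0.0397 to 33.4 ± 0.84 FPKM. The 1 lower gene was Klf2, which is also a factor of naive pluripotency and fell from 82.3 ± 3.53 FPKM in ESCs to 5.41 ± 0.615 in MEFs. At the surface, 22 of 23 genes were higher and none lower (median 3.94). All 23 reached a mean of 1 FPKM in MEFs and 11 did in ESCs, so the filter bears on this list too. The hyaluronan receptor gene Cd44 rose from 0.146 ± 0.0312 to 196 ± 6.3 FPKM, Thy1, by which fibroblasts are often sorted, from 1.07 ± 0.295 to 73.9 ± 7.35 FPKM, and N-cadherin (Cdh2) from 1.85 ± 0.193 to 60.6 ± 3.86 FPKM. Ly6a (Sca-1), whose family has close copies that may share reads, rose from 0.132 ± 0.122 to 178 ± 4.66 FPKM.

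Epithelial genes went the other way. Of 31 tested, 24 were lower and 4 higher (median -1.45). In ESCs 25 members reached a mean of 1 FPKM and in MEFs 10, so the level filter bears on this direction. E-cadherin (Cdh1) read 94, 87.7 and 91.3 FPKM in ESCs and 0, 0.0118 and 0 in MEFs, opposite to N-cadherin. Epcam fell from 26.9 ± 0.992 to 0.126 ± 0.0315 FPKM, and Spint2 and Spint1, membrane-anchored protease inhibitors of epithelia, fell by 4.42 and 4.24. The exceptions were the keratins Krt19, up from 0.287 ± 0.236 to 21.4 ± 0.791 FPKM, and Krt18, up from 3.03 ± 0.516 to 10.6 ± 1.09 FPKM, together with the junction genes Patj and F11r. F11r, at 10.2 ± 0.608 FPKM in ESCs and 13 ± 0.31 in MEFs, loses its call without MEF replicate 2 (limma adjusted p = 0.0514) or without ESC replicate 2 (0.0655).

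Hox genes, whose combinations mark position along the body axis and the limbs, were read in MEFs and at low levels in ESCs. Of 39 Hox genes, 37 are in the table and 31 were tested: 30 were higher in MEFs, 1 was lower (median 2.31), and 25 lay above all 3 stem cell states. A mean of 1 FPKM was reached by 31 members in MEFs and by 2 in ESCs, so the level filter largely set this direction. With a filter of 5 FPKM, 14 were higher. Summed levels were 198 to 201 FPKM in MEF libraries and 9.8 to 10.3 in ESC libraries. Hoxc6 was the highest, at 24.4, 22.9 and 23.9 FPKM in MEFs against 0.0308, 0 and 0 in ESCs. Hoxb6, listed at 0 in every ESC library, reached 10.9 ± 0.442 FPKM, and Hoxa11 rose from 0.166 ± 0.131 to 9.35 ± 0.178 FPKM. Hoxa10 reached 15.2 ± 1.1 FPKM, Hoxb9 14.1 ± 0.282 and Hoxd13, the last gene of its cluster, 10.8 ± 0.943; these 3 were chosen after their values were seen. Genes of low and of high paralogue number were thus read in the same cultures, whose cells cannot be told apart here. Hoxc13 fell from 0.909 ± 0.238 to 0.447 ± 0.0742 FPKM. The 6 Hox genes in the table that were not tested stayed under the level filter.

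**Figure D3:**
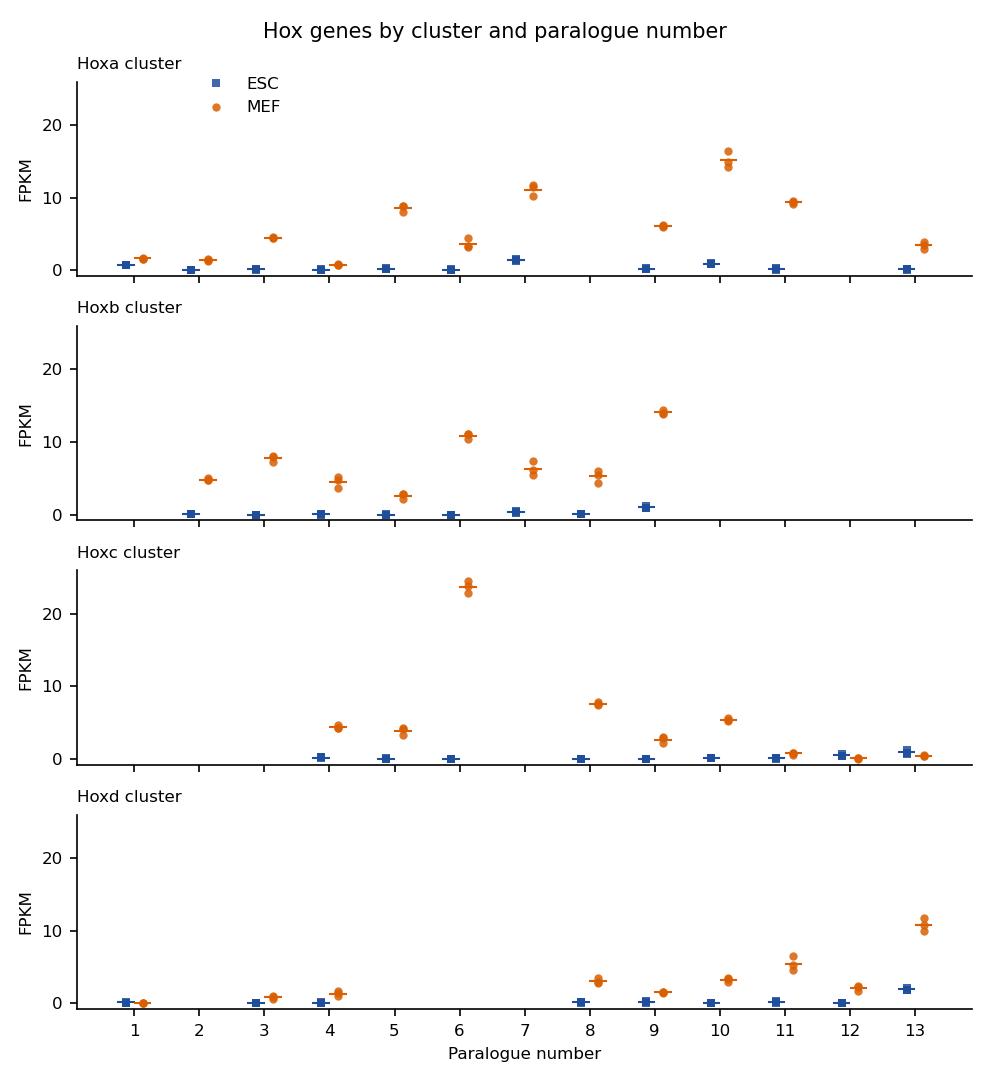
Each panel is a Hox cluster, with the paralogue number on the horizontal axis and FPKM on the vertical; points are libraries and short lines group means, for ESCs (squares) and MEFs (circles). The MEF libraries lie above the ESC libraries for most paralogues of all clusters, with Hoxc6 highest at 23.7 FPKM and Hoxc13 lower in MEFs.

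Receptor tyrosine kinases and their ligands changed in both directions. Among these genes, 22 of 31 tested were higher and 8 lower (median 2.21). Fgf4, the FGF that stem cells make themselves, read 65.9, 63.4 and 62.7 FPKM in ESCs and 0 in all MEF libraries, and Fgf17 fell from 16.1 ± 0.804 to 0.0372 ± 0.0382 FPKM. Kit, the stem cell factor receptor, fell from 22.1 ± 0.546 to 0.0816 ± 0.0241 FPKM. The colony-stimulating factor Csf1, on which macrophages depend, rose from 0.0561 ± 0.0268 to 80.6 ± 5.61 FPKM, Fgf7 (keratinocyte growth factor) from 0.044 ± 0.0299 to 34.2 ± 2.5 FPKM, Pdgfra from 0.123 ± 0.0665 to 29.4 ± 2.71 FPKM and Pdgfrb from 0.309 ± 0.0592 to 16.2 ± 0.883 FPKM.

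In the TGF-beta and BMP list, 18 of 29 tested were higher and 7 lower (median 1.12). Nodal and some genes that act with it fell, while Smad3, which transduces TGF-beta and Nodal signals, rose from 2.54 ± 0.208 to 18.8 ± 0.326 FPKM (Smad3 was chosen after its values were seen). Nodal read 27.6, 26.1 and 26.4 FPKM in ESCs and 0 in MEFs, Lefty2, its feedback inhibitor, 48.7, 56 and 58.3 and 0, and Tdgf1, its co-receptor, 252, 246 and 251 and 0. Gdf3 fell from 95.6 ± 2.37 to 0.0859 ± 0.0257 FPKM. On the other side, the BMP antagonist Grem1 rose from 0.214 ± 0.0305 to 102 ± 4.96 FPKM, the activin subunit Inhba from 0.00298 ± 0.00516 to 50.2 ± 3.12 FPKM and the receptor Tgfbr2 from 0.107 ± 0.026 to 27.5 ± 1.32 FPKM. In the WNT list 11 genes were higher and 11 lower of 23 tested, with a median difference near 0 whose sign turned with the pseudocount, quantile normalization and some left-out libraries. Axin2, Notum and Tcf7 fell by 2.79, 3.04 and 2.76, while Dkk2 rose from 0 to 37.2 ± 2.26 FPKM, Wnt5a from 0.159 ± 0.0835 to 26.6 ± 0.905 FPKM and Ccn4 from 0.0374 ± 0.0331 to 20 ± 1.12 FPKM.

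Pluripotency genes were the lists furthest down. All 19 core genes were lower, each by at least 1 (median -6.04), and 14 of them lay below EpiSCs and 2CLCs as well. In ESCs 19 members reached a mean of 1 FPKM and in MEFs 2, so the level filter bears on this direction. Summed over the list, ESC libraries held 2571 to 2612 FPKM and MEF libraries 15.6 to 16.6, of which Zfp281 and Rif1, chosen after their values were seen, made up most, at 8.38 and 4.11 FPKM. Sox2 read 132, 131 and 129 FPKM in ESCs and 0.671, 0.951 and 0.602 in MEFs. Sall4 fell from 65.5 ± 2.77 to 0.00933 ± 0.00879 FPKM, and Dppa4 and Lin28a were listed at 0 in MEFs. Of 31 naive pluripotency genes, 28 were lower and 2 higher (median -3.70). Tcl1, a cofactor of the kinase Akt, read 26.3, 27.6 and 27.8 FPKM in ESCs and 0 in MEFs, and Tfcp2l1 fell from 59.5 ± 2.28 to 0.0703 ± 0.0418 FPKM. Klf4, a factor of the reprogramming set, fell from 69.4 ± 1.16 to 13.1 ± 0.387 FPKM and so stayed above 10 FPKM. The 2 higher genes were Spp1 and Il6st (gp130), the shared receptor subunit for LIF and IL-6 cytokines, which rose from 7.22 ± 0.063 to 31.1 ± 0.871 FPKM.

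The window before the start site of Zfp42 on chromosome 8 holds the octamer (186 bases before the start, capitals). The octamer was held by 2 of 21 naive genes, 1 of 13 core pluripotency genes and 1.69% of the genes tested with a window. Of genes at least 1 higher in MEFs 2% held it, and of genes at least 1 lower 1.68%. The Zfp42 window is printed because Zfp42 is the third largest fall. The other naive match was in Spp1, which rose.
Zfp42, chr8:43307010-43307259, minus strand: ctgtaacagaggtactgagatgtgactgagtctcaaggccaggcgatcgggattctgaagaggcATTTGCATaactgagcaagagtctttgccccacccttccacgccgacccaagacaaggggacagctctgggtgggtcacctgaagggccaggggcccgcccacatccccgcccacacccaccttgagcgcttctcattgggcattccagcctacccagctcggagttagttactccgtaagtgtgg

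Primed epiblast and germline genes were mostly lower in MEFs too. Of 15 primed epiblast genes, 10 were lower and 4 higher (median -1.42). Foxd3 fell from 14.9 ± 0.81 to 0.293 ± 0.0408 FPKM, and Nes (nestin), an intermediate filament also of mesenchymal progenitors, rose from 1.6 ± 0.0449 to 38 ± 1.4 FPKM. Of 22 genes of the 2-cell stage, 15 were lower and 1 higher, most from means under 1 FPKM in ESCs, and such genes passed the level filter only through EpiSC or 2CLC libraries. With a pseudocount of 5, 8 were lower, and with a fit and filter on MEF and ESC libraries alone 4 were, so that no direction is read from the list. Zscan4f, the highest named, read 3.75, 3.74 and 3.77 FPKM in ESCs and 0 in MEFs, and its cluster has near-identical copies between which reads may be split. All 18 germline genes tested were lower in MEFs (median -1.83, with 25 of 30 in the table). A mean of 1 FPKM was reached by 18 members in ESCs and by 0 in MEFs, so the level filter largely set this direction. With a filter of 5 FPKM, 7 were lower. Rpl10l, a germ cell copy of a ribosomal protein gene, read 42.8, 45.2 and 45.7 FPKM in ESCs and 0 in MEFs, and Tex19.1 fell from 11.2 ± 0.929 to 0.0132 ± 0.023 FPKM.

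Chromatin regulators moved in both directions within their families. Among 18 DNA methylation genes, 13 were lower in MEFs and 4 higher (median -1.74). Dnmt3l, the cofactor of the de novo enzymes, read 129, 119 and 118 FPKM in ESCs and 0.144, 0.449 and 0.11 in MEFs. Tet1, which oxidises methylcytosine, fell from 67.8 ± 4.14 to 0.409 ± 0.0479 FPKM, Dnmt3b from 25.5 ± 0.804 to 0.428 ± 0.117 FPKM and Dnmt1, the maintenance enzyme, from 84.2 ± 2 to 27.4 ± 0.0537 FPKM. Tet3 rose from 1.4 ± 0.293 to 6 ± 0.101 FPKM, and the methyl-CpG binder Mbd2 from 6.16 ± 0.242 to 30.2 ± 0.745 FPKM. Hells, a remodeller that DNA methylation at repeats needs, fell from 82.1 ± 1.14 to 6.67 ± 0.313 FPKM. Of 31 Polycomb genes, 19 were lower and 7 higher (median -1.38). Epop, an accessory subunit of PRC2, fell from 208 ± 4.49 to 2.27 ± 0.235 FPKM and Ezh2, its methyltransferase, from 80.7 ± 2.29 to 14.6 ± 0.243 FPKM. Within PRC1, Cbx7 fell from 62.1 ± 4.47 to 0.708 ± 0.0781 FPKM and Phc1 from 121 ± 4.11 to 6.39 ± 0.487 FPKM, while Phc2 rose from 7.58 ± 1.5 to 71 ± 2.73 FPKM and Bmi1 from 2.12 ± 0.323 to 11.9 ± 1.04 FPKM. The SWI/SNF remodeller, with 14 of 24 subunits lower and 3 higher (median -0.30), also held members of both directions. Smarca2 (BRM) rose from 0.248 ± 0.102 to 8.34 ± 0.786 FPKM and Smarcc2 from 9.55 ± 0.168 to 34.9 ± 1.47 FPKM, while Smarcc1 fell from 77.6 ± 3.28 to 34 ± 0.857 FPKM and Smarcd1 from 63.9 ± 1.24 to 8.6 ± 0.124 FPKM. The count of higher subunits became 5 under median-of-ratios scaling.

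Genes of DNA replication and mitosis were lower in MEFs wherever they were called. All 38 DNA replication genes were lower, 37 of them by at least 1 (median -2.03), and 27 lay below EpiSCs and 2CLCs too. Mcm5, a subunit of the replicative helicase, read 259, 251 and 256 FPKM in ESCs and 15.7, 15.7 and 15.3 in MEFs, and Pcna, the sliding clamp, 258, 263 and 249.7 and 50.7, 51.3 and 54.3. Of 34 mitosis genes, 33 were lower and none higher (median -1.66). Cyclin B1 (Ccnb1) fell from 159.7 ± 2.78 to 27.2 ± 0.518 FPKM and Ncapd2, of condensin, from 146 ± 3.54 to 24.3 ± 0.92 FPKM. The proliferation marker Mki67 moved less, from 32.3 ± 1.2 to 20.3 ± 0.78 FPKM (difference -0.64, limma adjusted p = 0.000909).

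Genes of G1, the phase before replication, moved in both directions. Of 27 genes of G1 control, 9 were higher and 14 lower (median -0.44). Cyclins D1 and D2, which answer growth factors, rose, Ccnd1 from 63.6 ± 0.704 to 386 ± 5.76 FPKM and Ccnd2 from 9.35 ± 0.82 to 166 ± 1.83 FPKM, while cyclin E1 (Ccne1) fell from 123 ± 1.02 to 18.9 ± 0.141 FPKM. Several CDK inhibitors rose too. Cdkn2b (p15) read 83, 80.6 and 81.7 FPKM in MEFs against 0.4, 0.485 and 0.59 in ESCs, and Cdkn1c (p57), an imprinted gene, rose from 0.897 ± 0.164 to 91.5 ± 1.83 FPKM. Cdkn2a, whose locus encodes the inhibitors p16 and p19Arf, rose from 12.2 ± 0.0233 to 123 ± 6.74 FPKM, and Cdkn1a (p21) from 26.6 ± 0.637 to 236 ± 2.81 FPKM. Mycn fell from 54.1 ± 0.576 to 0.538 ± 0.0896 FPKM, whereas Myc was not called, at 42 ± 1.77 FPKM in ESCs and 39.2 ± 0.978 in MEFs. Of 26 p53 target genes, 19 were higher and 5 lower (median 1.15), Ccng1 rising from 43.3 ± 2 to 314 ± 11.3 FPKM and Mdm2 from 40.2 ± 1.97 to 139 ± 2.3 FPKM, while the gene of p53 itself (Trp53) fell from 203 ± 4.86 to 84 ± 1.77 FPKM. Without ESC replicate 1, and with median-of-ratios scaling, 3 of the p53 targets were lower. Cdkn1a counts in both lists.

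**Figure D4:**
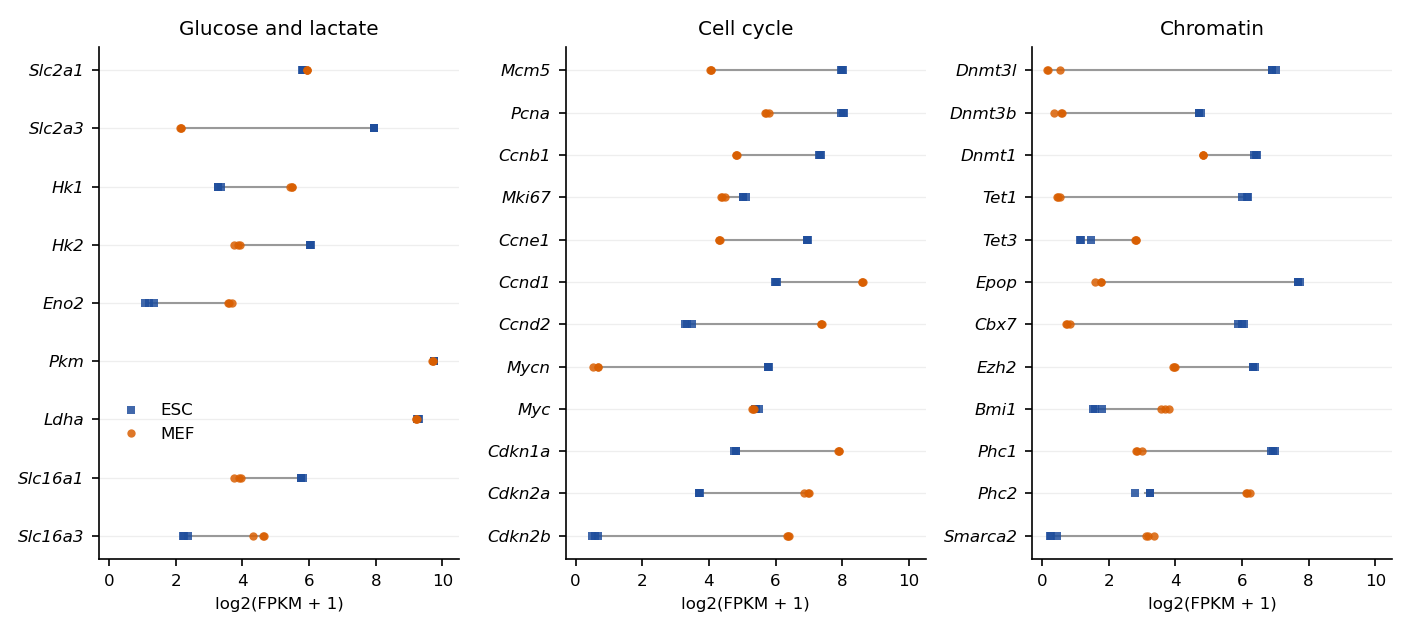
Each row is a gene and each point a library at its log2(FPKM + 1), for ESCs (squares) and MEFs (circles), joined by a line between the means. Slc2a3, Mycn, Dnmt3l and Epop lie far to the left in MEFs, Ccnd2, Cdkn2b and Phc2 far to the right, and Pkm, Ldha and Myc overlap or nearly so.

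Glycolysis genes were mixed, the hexokinase genes Hk1 and Hk2 changing in opposite directions, while Pkm and Ldha were not called. Of 23 genes tested, 9 were higher, 3 lower and 11 not called, with a median of 0.13. Pkm read 854 ± 1.36 FPKM in ESCs and 835 ± 7.59 in MEFs, and Ldha, which makes lactate from pyruvate, 614 ± 10.3 and 594 ± 10.9; neither was called. The glucose transporter Slc2a3 (GLUT3) fell from 244, 247 and 244 FPKM in the ESC libraries to 3.34, 3.42 and 3.44 in the MEF libraries, while Slc2a1 (GLUT1) was not called at 54.7 ± 0.47 and 60.4 ± 0.196. Hexokinase 2 (Hk2) fell from 64.8 ± 0.584 to 13.5 ± 0.927 FPKM and hexokinase 1 (Hk1) rose from 8.82 ± 0.368 to 43.4 ± 0.853 FPKM. Tigar, a phosphatase that slows glycolysis, fell from 35.2 ± 0.303 to 5.52 ± 0.368 FPKM, and Eno2 rose from 1.31 ± 0.211 to 11.3 ± 0.541 FPKM. Fitted on the MEF and ESC libraries alone, 7 genes of the list were lower in place of 3. Summed over the list, EpiSC libraries ran from 4120 to 8896 FPKM, MEF libraries from 2891 to 2948 and ESC libraries from 2983 to 3024. The EpiSC spread enters the shared test, so a gene not called here may still differ.

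The series also treats ESCs with lactate, and the lactate transporter genes moved in opposite directions. Slc16a1 (MCT1) fell from 53.9 ± 1.67 to 13.6 ± 1.04 FPKM and Slc16a3 (MCT4), the exporter of glycolytic cells, rose from 3.87 ± 0.261 to 22.1 ± 2.74 FPKM. Of 24 lactate and pyruvate genes tested, 7 were higher and 12 lower (median -0.26). Of the pyruvate dehydrogenase kinase genes, Pdk4 rose from 0.241 ± 0.052 to 7.14 ± 1.04 FPKM, and Pdk1 fell from 25.3 ± 0.971 to 8.74 ± 0.659 FPKM. Of 20 enzymes linked to lactylation, acyltransferases and deacylases, 15 were lower and 3 higher (median -0.86). The acetyltransferase Kat2b fell from 20.3 ± 0.622 to 2.79 ± 0.133 FPKM, Sirt1 from 32 ± 0.297 to 4.88 ± 0.143 FPKM and Hdac1 from 153 ± 1.51 to 52.8 ± 0.514 FPKM, the alanyl-tRNA synthetase gene Aars from 162 ± 1.65 to 49.7 ± 0.293 FPKM and Ep300 from 22.4 ± 1.28 to 13.3 ± 0.377 FPKM, while Sirt2 rose from 9.61 ± 0.114 to 45 ± 0.56 FPKM.

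Oxidative phosphorylation genes were lower by small steps. Of 80 nuclear genes tested, 60 were lower and 2 higher, but only 6 were lower by at least 1 (median -0.49), as against 20.5% of all genes. Cyc1 fell from 147 ± 4.8 to 51.5 ± 0.741 FPKM and Cox4i1 from 433 ± 4.93 to 268 ± 5.39 FPKM. Under median-of-ratios scaling 43 were lower and 9 higher, and under quantile normalization 45 and 11. The 13 genes of the mitochondrial genome split into 4 higher and 3 lower, none by 1. Only 1 was lower without ESC replicate 1, without ESC replicate 2, without any 1 of the 3 MEF libraries or with a pseudocount of 0.1, and on MEF and ESC libraries alone 7 were higher and 5 lower. With median-of-ratios scaling 8 were higher and none lower, with quantile normalization 7 and none, and under the former mt-Co1, at 3016 ± 54.3 FPKM in ESCs and 2687 ± 16.4 in MEFs, turned direction.

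One-carbon metabolism was lower, with 15 of 19 genes lower and 4 higher (median -1.48). Beside Tdh, the glycine cleavage genes Amt and Gldc fell, from 38 ± 1.09 to 1.15 ± 0.216 FPKM and from 18.2 ± 0.919 to 0.46 ± 0.0523 FPKM, and Shmt1 fell from 76.6 ± 1.03 to 7.03 ± 0.244 FPKM. Mthfd2l rose from 0.615 ± 0.2 to 10.8 ± 0.457 FPKM. Sterol synthesis leaned upward, with 15 of 25 genes higher and 4 lower (median 0.69). Hsd17b7 rose from 2.9 ± 0.222 to 21.8 ± 0.832 FPKM. Lysosome and autophagy genes were higher in 28 of 30 cases and lower in 1 (median 1.84). The protease gene Ctsd read 538, 514 and 520.5 FPKM in MEFs and 49.4, 49.6 and 52.5 in ESCs, Lamp2 rose from 9.37 ± 0.365 to 139.5 ± 5.67 FPKM and the autophagy gene Wipi1 from 1.32 ± 0.268 to 36.4 ± 1.95 FPKM. Tfeb, a factor that drives lysosomal genes, was the 1 lower member and fell from 14.5 ± 1.05 to 1.92 ± 0.212 FPKM.

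Genes of translation and splicing were mostly lower, the first by little and the second by more. Of 80 ribosomal protein genes, 73 were lower and none higher (median -0.57), 4 of them by at least 1. Rplp0 fell from 1016 ± 14.3 to 778 ± 3.45 FPKM. Median-of-ratios scaling left 58 lower and lost the call of Rplp0, and reads of these genes may be shared with their processed pseudogenes. Of 69 core spliceosome genes, 66 were lower and 1 higher (median -1.16), 46 of them by at least 1. Snrpn, a brain and stem cell form of the Sm protein and an imprinted gene, fell from 99 ± 1.07 to 10.4 ± 0.192 FPKM, Cdc5l from 110.5 ± 0.515 to 16 ± 0.693 FPKM and Snrpd1 from 135 ± 2.31 to 45.4 ± 1.92 FPKM. Prpf39 rose from 13.1 ± 0.506 to 20 ± 0.801 FPKM. Among 50 SR and hnRNP regulators tested, 42 were lower and 5 higher (median -0.97). The splicing activators Srsf7 and Srsf2 were both lower: Srsf7 went from 204 ± 25.9 to 54.9 ± 0.808 FPKM, and Srsf2 from 291 ± 5.8 to 102 ± 7.93 FPKM. Among the higher genes are regulators of tissue-specific splicing: Mbnl2 read 62.5, 60.1 and 62.5 FPKM in MEFs and 3.71, 2.87 and 3.41 in ESCs, Mbnl1 rose from 5.48 ± 0.608 to 37.5 ± 2.14 FPKM, Celf2 from 0.458 ± 0.133 to 16.9 ± 0.755 FPKM and Rbfox2 from 24.6 ± 1.23 to 52.3 ± 1.64 FPKM. Esrp1, a splicing factor of epithelia, read 1.17, 0.986 and 1.28 FPKM in ESCs and 0 in every MEF library.

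Genes of antigen presentation and chemokines were mostly higher in MEFs. B2m, the light chain of MHC class I, read 289, 276 and 289.5 FPKM in MEFs and 7.74, 8.6 and 8.63 in ESCs, and 14 of 19 class I presentation genes were higher and 4 lower (median 0.72). The heavy chain gene H2-D1 rose from 2.68 ± 0.112 to 19.3 ± 0.957 FPKM, H2-K1 from 7.73 ± 0.304 to 11.3 ± 0.789 FPKM and the peptide transporter Tap1 from 0.238 ± 0.0754 to 5.04 ± 0.377 FPKM; class I heavy chains are near copies of each other, and their reads may be split. Psmb10, an immunoproteasome subunit, fell from 38.5 ± 0.857 to 7.03 ± 0.667 FPKM. All 20 chemokine, cytokine and complement genes tested were higher (median 2.46). A mean of 1 FPKM was reached by 20 members in MEFs and by 3 in ESCs, so the level filter largely set this direction. With a filter of 5 FPKM, 10 were higher. Ccl2, which draws monocytes, was listed at 0 in ESCs and read 94, 94 and 97.5 FPKM in MEFs, Ccl7 went from 0 to 44.5 ± 2.34, and Cxcl12, a stromal chemokine, rose from 0.102 ± 0.0132 to 50.1 ± 2.77 FPKM. Interferon and RNA sensing genes were mixed, with 12 of 25 higher and 8 lower (median 0.35). Sting1 rose from 0.833 ± 0.254 to 18.6 ± 0.505 FPKM, and Ifitm1, a gene of stem cells and germ cells, fell from 35.8 ± 2.45 to 1.67 ± 0.383 FPKM.

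Immediate early genes, which serum induces, were higher in 13 of 18 cases and lower in 3 (median 1.45). Jun read 82.7, 81.2 and 80.2 FPKM in MEFs and 1.15, 1.19 and 1.41 in ESCs, and Egr1 rose from 0.241 ± 0.00805 to 16.4 ± 0.793 FPKM, while Ier2 fell from 112 ± 2.3 to 22.2 ± 0.629 FPKM. Of 21 targets of hypoxia-inducible factors, 11 were higher and 4 lower (median 0.99), with Adm up from 0.0479 ± 0.0445 to 40.6 ± 3.79 FPKM and Kdm3a down from 47.7 ± 0.955 to 13.5 ± 0.623 FPKM. Heat shock genes divided into 8 higher and 10 lower. The small heat shock gene Cryab rose from 1.4 ± 0.487 to 99.3 ± 7.02 FPKM, and the chaperone gene Hsp90aa1 fell from 824 ± 11.1 to 266 ± 4.04 FPKM. The unfolded protein response list had 16 of 24 genes higher (median 0.44), with Creb3l1, which drives secretion of collagen, up from 1.3 ± 0.0718 to 10.9 ± 1.34 FPKM and the ATF4 targets Asns and Trib3 down by 2.83 and 2.04. NRF2 targets were mixed, with 11 of 21 higher and 7 lower. Gsta4 fell from 296 ± 4.02 to 15.9 ± 1.34 FPKM and Hmox1 rose from 67.3 ± 2.34 to 152 ± 5.32 FPKM.

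Imprinted genes, read from 1 parental copy, moved far in both directions. Of 33 tested, 20 were higher and 10 lower (median 1.40). Beside H19 and Igf2, the growth restraint Grb10 rose from 2.22 ± 0.0845 to 158 ± 4.45 FPKM and Igf2r, the receptor that clears IGF2, from 6.05 ± 0.234 to 116 ± 3.33 FPKM. The noncoding Meg3 and its neighbour Dlk1 rose by 3.88 and 4.02. Zdbf2 fell from 21.9 ± 1.24 to 2.06 ± 0.0159 FPKM, Phlda2 from 7.88 ± 0.511 to 0.726 ± 0.163 FPKM and Mest from 78.3 ± 0.642 to 19.4 ± 0.83 FPKM. Levels sum both parental copies, and no strand setting is given in the sources used here, so reads of overlapping antisense pairs cannot be told apart. Cilium genes were balanced, with 11 of 28 higher and 8 lower and a median near 0 whose sign turned under quantile normalization, although Gli1, the readout of Hedgehog signalling, fell from 5.87 ± 0.287 to 0.0627 ± 0.0357 FPKM.

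**Figure D5:**
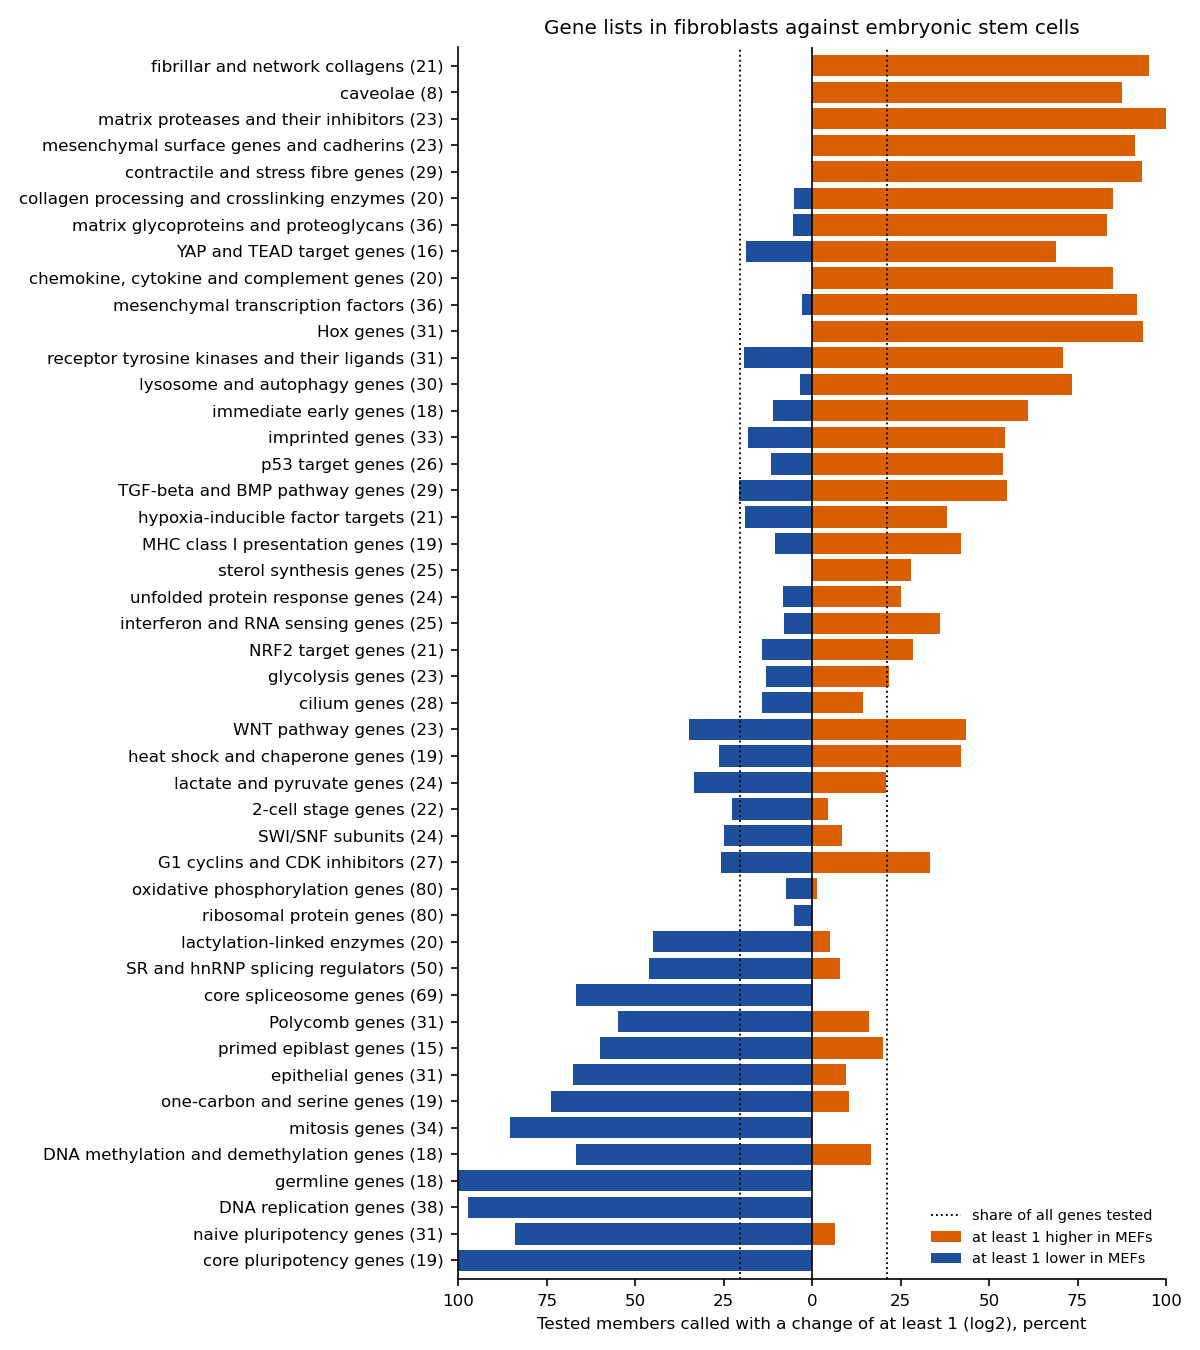
Bars give, for each list with at least 8 tested members (number in brackets) other than markers of other cell types, noncoding RNAs and the mitochondrial genome, the percent of tested members called at least 1 higher in MEFs (right) or at least 1 lower (left); dotted lines mark 21.2% and 20.5%, the shares of all genes tested. Lists of the matrix, contraction, caveolae and Hox genes reach far past the right line, pluripotency, germline, replication and mitosis lists far past the left line, and glycolysis, oxidative phosphorylation, ribosomal protein and cilium genes stay near or inside both lines.

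Markers of other cell types were checked, since a culture of embryonic cells can hold more than fibroblasts. Macrophage markers were present in MEFs: all 12 tested of the 15 in the table (17 in the list) were higher than in ESCs. A mean of 1 FPKM was reached by 12 members in MEFs and by 1 in ESCs, so the level filter largely set this direction. The summed level of the list was 246 to 267 FPKM in MEF libraries and 6.35 to 6.6 in ESC libraries. Lyz2 was listed at 0 in ESCs and read 178, 159 and 169 FPKM in MEFs. Csf1r, the receptor for the Csf1 product, read 5.55, 5.16 and 5.22 in MEFs, Adgre1 (F4/80) 5.73, 4.92 and 5.3 and C1qb 13.7, 14.5 and 11.4, while Ptprc (CD45), which was not tested, stood at 0.953 ± 0.0433. In ESCs, Adgre1 and C1qb were listed at 0. These markers moved with the chemokine, class I and lysosome lists above, and their part in those results was not tested.

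Fabp4 and Pparg, read in fat cells and their precursors, went from 0 in ESCs to 48.8 ± 7.75 and 10.2 ± 1.04 FPKM, with Adipoq at 0.426 ± 0.261. All 4 adipocyte markers tested of 6 in the table were higher, and the list summed to 64.2 to 83.6 FPKM in MEFs and 8.71 to 9.43 in ESCs. A mean of 1 FPKM was reached by 4 members in MEFs and by 1 in ESCs, so the level filter bears on this direction too. Of cartilage and bone markers, Sox9 stood at 8.22 ± 0.093 FPKM and Col2a1 at 7.09 ± 0.0455 in MEFs, with Acan at 0.0185 ± 0.0208, and the list summed to 17.1 to 18 FPKM against 97.9 to 104 in ESCs, where Alpl made up most of it. Endothelial markers summed to 13 to 13.3 FPKM in MEFs against 26.2 to 28.9 in ESCs (2 of 8 tested were higher and 4 lower). Pecam1, an endothelial gene outside that list and counted here with the naive genes, fell from 15.4 ± 0.652 to 0.124 ± 0.0605 FPKM. It was chosen after its value was seen. Keratinocyte markers summed to 38 to 41.6 against 49.8 to 51.1 (1 of 5 higher, 3 lower) and neural markers to 66.8 to 69.7 against 162 to 173 (3 of 9 higher, 6 lower). Skeletal muscle markers summed to 46.3 to 53 FPKM against 141 to 164, where Mylpf led in ESCs at 145 ± 12 and Acta1 in MEFs at 22.1 ± 1.88. Primitive endoderm markers summed to 365 to 372 FPKM in MEFs against 30 to 32.2 (5 of 7 higher, 1 lower), a list that holds Col4a1, Lamb1 and Pdgfra of fibroblasts. Its factor Gata6 rose from 0.234 ± 0.0461 to 5.47 ± 0.166 FPKM and Sox17 was not called at 0.0228 FPKM in MEFs. Trophectoderm markers summed to 32.1 to 34.7 against 41.4 to 44.1 (4 of 10 higher, 5 lower), with Cdx2 listed at 0 in MEFs. The part of these markers in other results was not tested. The fibroblast genes named in the marker list, Col1a1, Col1a2, Col3a1, Thy1, Pdgfra, Pdgfrb, Dcn, Lum, Prrx1, Twist1, Twist2, Postn, Vim and S100a4, were all called higher in MEFs. The stem cell markers Pou5f1, Sox2, Nanog, Zfp42, Esrrb, Klf4, Tfcp2l1, Dppa5a, Tdgf1 and Utf1 were all called lower. Markers thus went with both labels. Lum was chosen from the marker list after its value was seen.

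Sex-linked genes differed between the cell types. Xist, which silences an X chromosome in female cells, read 33.1, 33.3 and 32.3 FPKM in MEFs and 0.414, 0.348 and 0.855 in ESCs, while the Y-linked Eif2s3y read 8.73, 7.3 and 8.38 and 0.828, 1.08 and 0.826 and Ddx3y 4.6, 4.38 and 4.62 and 1.88, 1.73 and 1.7. Kdm5d stood at 0.874 ± 0.393 in MEFs and 0.00414 ± 0.00717 in ESCs. MEF libraries thus held transcripts of both Xist and the Y chromosome, and the part of sex in any other difference was not tested. Replicates are named as br1 to br3 in the labels, which do not say whether they came from separate embryos or cultures, so the p-values measure the spread between these libraries, which may be technical.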

How the data were processed

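Total RNA was extracted with Trizol and sequenced on a MiSeq from TruSeq libraries, per the labels' protocols. The authors deposited FPKM values per gene; the submitters' processing notes name HISAT2 2.0.4, StringTie 2.1.4 and the mouse genome mm10, and the gene annotation and any strand setting are not given in the sources used here. Raw depth is unknown, since single-exon genes showed no common step of 1 read, so no interval or detection floor was computed. Entries sharing a name (35 names, none of them named in the text) were summed, giving 21161 names, of which 20640 matched GENCODE M21.

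Genes reaching 1 FPKM in 3 or more of the table's 12 libraries were fitted as log2(FPKM + 1) with limma 3.58.1 in R 4.3.3 (linear model over 4 cell types, empirical Bayes with mean trend, Benjamini-Hochberg adjustment, two-sided), with tables made in Python 3.11.15. The code of the test was run on simulated data with few changed genes and the same spread in all groups. These data differ in both, so that run does not measure the error rate here. Named genes are the 15 largest rises and falls among called genes whose higher group averages 5 FPKM or more and whose libraries do not overlap, the defining genes of each list, and up to 4 called members with the largest rise and 4 with the largest fall per list; some of these are not reported here. The comparison, the gene lists and their members were chosen with earlier results of these data known. Promoter and mature miRNA sequences were credited by symbol to RefSeq on GRCm38.p6. Alternatives were the pseudocount, the level filter, the scaling, the variance model, the libraries in the fit, the replicate number as a block, each library left out, and repeated names left out. Of the 9 libraries of the lactate treatment, the untreated ones were used in 1 comparison of chromosome medians.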

Additional observations from a re-analysis of the deposited data

How the results depend on the processing

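The counts over all genes held within 1.5 times under most alternatives. They left that range with a pseudocount of 5 FPKM, when 1912 genes were higher by at least 1, 1875 lower by at least 1, 1238 above all 3 stem cell states and 340 below them, and with a pseudocount of 0.1, when 1347 lay below them. Leaving out 1 MEF or ESC library at a time gave 11821 to 11898 called genes. Median-of-ratios scaling moved the share of calls that were higher from 45.7% to 51.5% and the median over all genes from -0.073 to 0. For 58 lists and 496 named genes, each value was counted once per alternative in which it was fitted, over 16 alternatives. Of list medians so counted, 619 held within 1 SD of the median between MEF libraries, 297 moved further and 12 turned sign. With a pseudocount of 5, 50 list medians moved, and with median-of-ratios scaling 45, so the sizes of these medians depend on the processing. Of list counts, 1804 held and 52 moved. Of the values of named genes, 7767 held, 94 (from 23 genes) lost their call, 19 gained one and 2 turned direction. The latter were mt-Co1 (0.034) and mt-Co2 (0.056) under median-of-ratios scaling. List medians that turned sign all lay near 0 or rested on few members: for WNT genes (0.003) -0.000361 with a pseudocount of 0.1, -0.183 with quantile normalization and -0.0386 to 0.0663 without 1 library (below 0 without ESC replicate 1, MEF replicate 2 or MEF replicate 3); for cilium genes (0.0268) -0.179 with quantile normalization and -0.0417 to 0.0484 without 1 library (below 0 without MEF replicate 2). Endothelial markers (-0.428) gave 0.127 with a filter of 5 FPKM; skeletal muscle markers (0.062) -0.575 with a pseudocount of 0.1 and -0.0891 with quantile normalization; trophectoderm markers (-0.428) 0.169 with no filter and 0.588 with a filter of 5 FPKM. The cause was not tested. The replicate block left 12258 genes called, 5602 higher and 6656 lower. Deviations of MEF and ESC libraries of the same number correlated at 0.071, -0.001 and -0.03, and those of different numbers at -0.064 to 0.068. No pairing by number shows in these values, but with 3 libraries a group they cannot exclude it. FPKM values carry no read counts, which leaves the precision of low levels unknown.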

Other observations

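Some gene classes outside the lists held few higher members. Of all genes tested 34.4% were higher in MEFs and 40.9% lower. Of 1177 processed pseudogenes tested, 77 were higher (6.54%) and 502 lower (42.7%), the latter a share near that of all genes. Of 123 small nucleolar RNA genes, 1 was higher (0.813%) and 60 lower (48.8%), and of 399 lincRNA genes 68 were higher (17%) and 136 lower (34.1%), both shares under those of all genes. Among long noncoding RNAs of nuclear bodies, Malat1 rose from 32.6 ± 2.63 FPKM in ESCs to 192 ± 17.1 in MEFs and Neat1, the scaffold of paraspeckles, from 2.48 ± 0.505 to 15 ± 0.893 FPKM.

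MicroRNA loci in the table carry reads of precursors or host transcripts, not of mature microRNAs, and the 5 loci given here were chosen after their values were seen. Mir675, which lies within H19, read 3.87, 4.17 and 4.59 FPKM in MEFs and at most 0.0506 in ESCs. Mir221 read 1.65, 1.08 and 1.2 in MEFs and 0 in every ESC library. Both stood above all ESC libraries. On the other side, Mir290a, of a cluster known from early embryos and stem cells, read 1.17, 0.586 and 1.16 in ESCs, and Mir363 and Mir92-2, neighbours on chromosome X, read 3.51, 2.81 and 1.74 and 2.59, 1.64 and 1.42; all 3 were listed at 0 in every MEF library. Each of the 5 was called by limma (adjusted p from 1.97e-11 for Mir675 to 0.00348 for Mir290a). Of 124 microRNA loci tested, 19 were higher in MEFs (15.3%) and 22 lower (17.7%), both shares under those of all genes tested (34.4% and 40.9%). Mir221 and Mir675 stayed under 1 FPKM in every ESC, EpiSC and 2CLC library, so both passed the level filter only through MEFs. Mature sequences from RefSeq on GRCm38.p6 are shown with the seed, bases 2 to 8, in capitals, since 2 of the loci listed at 0 in MEFs give products with the same seed.
miR-363-3p: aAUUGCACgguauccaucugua
miR-92a-3p: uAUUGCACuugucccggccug
miR-290a-3p: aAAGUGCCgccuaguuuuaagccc
miR-221-3p: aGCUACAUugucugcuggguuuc
miR-675-3p: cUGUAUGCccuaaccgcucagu

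Chromosome 8 stood lowest among autosomes in the comparison of MEFs with ESCs. Over 387 of its protein-coding genes with at least 5 FPKM in both cell types the median difference was -0.627, against -0.248 over all 6412 such genes and -0.522 to -0.08 on the other 18 autosomes, chromosome 6 being next. The 9 pairs of a MEF and an ESC library gave -0.678 to -0.604, and windows of 20 Mb along the chromosome -0.956 to -0.341. MEFs against EpiSCs gave -0.257 (-0.208 over all genes, -0.486 to -0.073 on the other autosomes), and MEFs against 2CLCs -0.003 (0.089 to 0.404), whereas EpiSCs against ESCs gave -0.447 (-0.13 to 0.235 on the other autosomes). In 2CLCs against ESCs chromosome 8, at -0.742, lay within the range of the other autosomes (-0.849 to -0.514). MEFs against the untreated ESCs of the lactate experiment, in a table normalized separately, gave -0.576 (-0.331 to 0.055 on the other autosomes).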
